A study of Mus musculus with 15 samples.

Results

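Transcripts of the proteasome, the protease that degrades ubiquitin-tagged proteins, were followed in mouse livers after a chemical carcinogen and a liver toxin. Members were all genes whose symbol is Psma, Psmb, Psmc, Psmd or Psme followed by a number, read from probe sets that carry that symbol alone. A probe set is the group of array oligonucleotides that reports on a transcript. The rule found 42 genes among the 18193 that such probe sets name, on 88 probe sets, and each gene was read from its brightest probe set, by the mean of the 15 arrays. Of these, 40 reached a log2 value of 4, below which a value was taken as near background, on at least 3 arrays, and were tested among 9482 genes in all. The other 2 stayed under 4 on every array: Psma8, a testis-specific alpha subunit, ranged from 2.49 to 3.98 and Psmb11, a thymus-specific catalytic subunit, from 1.68 to 2.31. Psme2, the partner of Psme1, is read here only by a probe set that also names Psme2b, so it is no member and is given no value.

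RNA from livers of 15-week-old mice was hybridised, 1 array a sample, to an Affymetrix mouse expression array. The untreated wild type (arrays 1, 2 and 3) and the treated wild type (arrays 4, 5, 6 and 7) were C3H/HeOuJ mice. The treated Tlr4 mutant (arrays 8, 9, 10 and 11) was the C3H/HeJ strain, which carries the Tlr4P712H allele of the receptor for bacterial lipopolysaccharide throughout its body. The antibiotic group (arrays 12, 13, 14 and 15) was again C3H/HeOuJ. All groups but the untreated one received diethylnitrosamine (DEN), a liver carcinogen, at 100 mg/kg at 12 weeks of age, and carbon tetrachloride (CCl4), which kills hepatocytes around the central vein, at 0.5 ml/kg at 13 and at 15 weeks. Livers were taken 48 hours after the last CCl4. Vancomycin (500 mg/l) was given in the drinking water with ampicillin, metronidazole and neomycin (1 g/l of each) for 2 weeks from week 10, so this course ended when DEN was given. Sex is given as male except for 1 mutant sample without a sex label. There was no untreated mutant and no group with antibiotics alone, and strain and allele differ together, so their effects cannot be told apart. The allele changes a residue of the receptor, so the level of the Tlr4 transcript does not check the label. A further label text with other ages and a liver resection contradicts the rest and was not used. Nothing in the labels says that the samples of a group were separate animals, and p-values measure the spread between these samples.

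The proteasome is a barrel, the 20S core, made of outer rings of alpha subunits and inner rings of beta subunits, of which Psmb5, Psmb6 and Psmb7 cut proteins. The 19S cap binds ubiquitin, unfolds the substrate with a ring of ATPases (the base) and removes the ubiquitin chain (the lid). In cells exposed to interferon gamma, and in immune cells without it, Psmb8, Psmb9 and Psmb10 take the places of Psmb5, Psmb6 and Psmb7 in newly built cores; this immunoproteasome supplies many of the peptides that MHC class I molecules present.

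Psmb8 and Psmb9 lie in the MHC region of chromosome 17, in the order Psmb9, Tap1, Psmb8, Tap2, whereas Psmb10 lies on chromosome 8. Psmd9 was the member with the largest difference in treated against untreated wild type. The stretches before the starts of Psmb8, Psmb9, Psmb10 and Psmd9 are shown because the values below turn on these 4 genes. They are RefSeq sequences of build GRCm38.p6 on the gene's strand, with the last base next to the start. Capitals mark matches to any of 4 motifs searched on both strands in the 250 bases before a start: the interferon-stimulated response core GAAANNGAAA, the gamma-activated core TTCNNNGAA, the antioxidant response core TGACNNNGC and the CCAAT box. The Psmb9 stretch (chr17:34187331-34187555, minus strand) is the whole 225-base interval between its start and that of Tap1, which is read the other way. The others are Psmb8 (chr17:34197945-34198194, plus strand), Psmb10 (chr8:105938393-105938642, minus strand) and Psmd9 (chr5:123227940-123228189, plus strand).
Psmb9: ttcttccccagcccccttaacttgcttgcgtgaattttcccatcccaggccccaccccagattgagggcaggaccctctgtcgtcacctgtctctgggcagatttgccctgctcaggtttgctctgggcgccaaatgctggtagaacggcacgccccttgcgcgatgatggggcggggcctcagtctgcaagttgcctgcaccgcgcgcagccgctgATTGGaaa
Psmb8: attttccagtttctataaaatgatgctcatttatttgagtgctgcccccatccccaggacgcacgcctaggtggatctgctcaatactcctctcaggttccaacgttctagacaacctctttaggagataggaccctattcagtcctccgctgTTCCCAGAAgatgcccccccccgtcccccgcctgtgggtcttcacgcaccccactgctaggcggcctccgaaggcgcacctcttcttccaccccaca
Psmb10: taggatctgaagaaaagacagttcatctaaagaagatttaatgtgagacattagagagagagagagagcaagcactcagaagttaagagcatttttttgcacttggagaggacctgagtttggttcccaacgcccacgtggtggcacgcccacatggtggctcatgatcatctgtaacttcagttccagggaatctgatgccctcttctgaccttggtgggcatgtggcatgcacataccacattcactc
Psmd9: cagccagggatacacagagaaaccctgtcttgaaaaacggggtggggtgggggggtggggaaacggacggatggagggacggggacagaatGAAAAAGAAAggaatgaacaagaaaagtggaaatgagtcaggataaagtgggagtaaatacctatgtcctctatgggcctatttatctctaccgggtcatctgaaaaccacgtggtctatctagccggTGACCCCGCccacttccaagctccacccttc

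In these windows Psmb9 held a CCAAT box on the opposite strand (positions -8 to -4), Psmb8 a gamma-activated core (-97 to -89), and Psmd9 an interferon-stimulated core (-159 to -150) and an antioxidant core (-31 to -23). The marked matches do not overlap, and none of the 4 motifs was found in the Psmb10 window. Of 35 members with a sequence in the table, 3 (8.57%) held GAAANNGAAA (Psmb3, Psmd4 and Psmd9), 1 (2.86%) held TTCNNNGAA (Psmb8), 5 (14.3%) held TGACNNNGC (Psmb5, Psmb6, Psmc6, Psmd12 and Psmd9) and 14 (40.0%) held a CCAAT box. Over all 27025 genes of the table the shares were 3.46%, 8.13%, 11.5% and 37.5%. A match describes letters in a window and does not show a bound site.

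The values are log2 GCRMA summaries. Between 34.6% and 36.7% of probe sets were at or above 4 on each array, and arrays of a group correlated at 0.9774 to 0.9933 over the genes tested. All 8 hepatocyte markers on the array were at or above 4 everywhere, with a log2 of their summed level of 17.12 to 17.33 over the 15 arrays. Residuals of the 37 constitutive members (all tested members but Psmb8, Psmb9 and Psmb10) had a median SD of 0.18 on the log2 scale, against 0.23 for all genes. Within the treated wild type, array 4 lay above its group mean for 32 of the 37 constitutive members and array 6 for 1. In the other treated groups, array 14 lay above its group mean for 33 and array 9 for 3. Levels of different genes are not compared with each other below, since probe sets differ in response.

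In treated against untreated wild type, 16 of the 40 tested members rose and 0 fell (limma, adjusted p under 0.05 over all genes tested). Of all genes tested, 35.9% were called higher and 26.7% lower, so the members' 40.0% of rises lay close to the background. At an unadjusted p under 0.05 the counts were 21 higher and 1 lower. The share of all genes at that unadjusted threshold is not given, here or below, so such counts have no background. The median log2 difference was 0.27 over the 37 constitutive members, with a range from -0.22 to 1.26, and 0.10 over all genes. When arrays were centred on their medians, the all-gene median moved to -0.12 and the constitutive median to 0.05; centring shifts all genes alike, so the gap of 0.17 between these medians cannot change. With quantile normalisation the gap was 0.43. The share of higher calls among all calls, 57.4%, fell to 42.4% with centring and 43.8% with quantile normalisation. With centring 4 members were called higher (Psmd9, Psmd13, Psmd8 and Psme3) and 2 lower (Psma5 and Psme4). Of all genes tested, 27.4% were then called higher and 37.1% lower. The other 12 rises of members were not called with centring. Without untreated array 1 the count of risen members was 8, and it was 10 without untreated array 2 or without treated array 5. The share of all genes in fits without an array is not given, here or below. Whether the calls over all genes changed alike is therefore not shown.

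In the treated Tlr4 mutant against the treated wild type, 2 members were higher (Psmd9 and Psme4) and 4 lower (Psmb8, Psmb9, Psmb7 and Psme1), against 13.2% higher and 17.6% lower among all genes. The members' shares, 5.0% and 10.0%, were both below that background, and their median difference was -0.06 (0.02 for all genes). The higher share of all calls was 42.8%, and 50.5% with centring or 55.3% with quantile normalisation. Without array 5, 7, 8, 9 or 11 the count of lower members was 2. In the antibiotic group against the treated wild type, only Psmd9 was called, higher, and 0 of 40 members were lower, against 4.95% higher and 9.01% lower among all genes. At an unadjusted p under 0.05 these limma counts were 1 higher and 4 lower (Psmb8, Psmc6, Psmd11 and Psmd5). There the higher share of all calls was 35.4%, and 45.6% or 49.8% with the other scalings. Both comparisons use the same treated wild-type arrays.

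**Figure D1:**
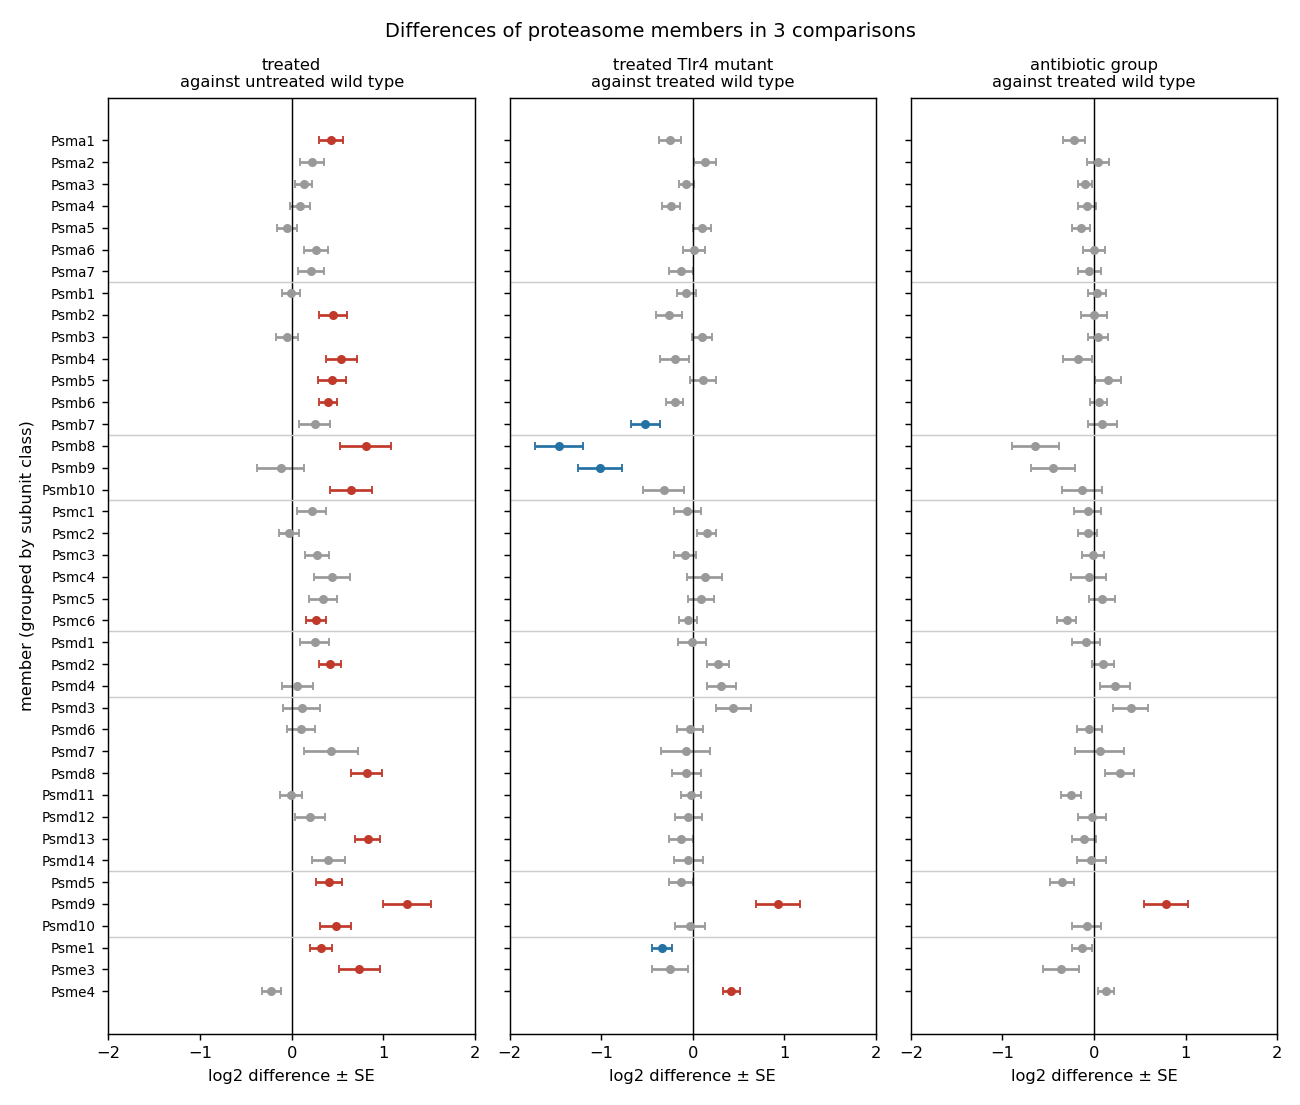
Log2 difference ± SE (horizontal axis) of each of the 40 tested members (vertical axis, grouped by subunit class) in 3 comparisons; red points were called higher, blue points lower and grey points not called. Calls are spread over all classes in the treated wild type, and in the mutant the points farthest to the left are Psmb8 (-1.46) and Psmb9 (-1.01).

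All 3 immunoproteasome subunits had means below the treated wild type in the mutant (differences of -1.46, -1.01 and -0.32) and in the antibiotic group (-0.64, -0.45 and -0.13), and the differences between the subunits were not tested. Psmb8, the subunit that replaces Psmb5, rose with treatment and was 2.75-fold lower in the mutant than in the treated wild type. Psmb9, which replaces Psmb6, did not pass the test with treatment and was 2.01-fold lower in the mutant. Psmb10, which replaces Psmb7, rose with treatment and was not called in the mutant or the antibiotic group.

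Psmb8 read 8.65, 8.55 and 8.98 on the untreated arrays and 8.98, 9.95, 9.54 and 9.65 on the treated wild-type arrays. On the mutant arrays it read 7.56, 7.96, 8.81 and 7.96, and in the antibiotic group 8.38, 8.90, 9.23 and 9.04. Treated array 4 stood at the level of the highest untreated array and the other 3 treated arrays were above all untreated ones. Every mutant array was below every treated wild-type array, with array 10 the closest. The mean rose from 8.73 ± 0.22 (SD, n = 3) to 9.53 ± 0.40 (SD, n = 4), a difference of 0.81 ± 0.28 (SE), or 1.75-fold, with an adjusted p of 0.0219. This call was lost without untreated array 1 (0.77, adjusted p = 0.0614), untreated array 2 (0.72, 0.077) or treated array 5 (0.67, 0.0658), and with centring (0.58, 0.0841). In the mutant, at 8.07 ± 0.53 (SD, n = 4), Psmb8 fell by 1.46 ± 0.26 (SE) against the treated wild type, with an adjusted p of 0.000812; the difference stayed between -1.70 and -1.29 with any array left out. Against untreated wild type the mutant difference was -0.65 ± 0.28, which was not called (adjusted p = 0.0632). It was called without treated array 4 (0.0478) or mutant array 10 (-0.90, 0.00861), with centring (-0.83, 0.0226), with quantile normalisation (-0.73, 0.0463) and with array weights (-0.62, 0.0358). The antibiotic group, at 8.89 ± 0.37 (SD, n = 4), differed from the treated wild type by -0.64 (95% interval -1.20 to -0.09, adjusted p = 0.115) and overlapped it; with array weights the difference was called (-0.71, 0.039).

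Psmb9 read 8.73, 8.53 and 8.60 without treatment and 8.29, 8.61, 8.55 and 8.54 in the treated wild type, so these groups overlapped. The mutant arrays read 6.93, 7.76, 8.17 and 7.12, all below both wild-type groups, and spread over more than a log2 unit. In the antibiotic group the values were 7.52, 7.95, 8.42 and 8.29; all 4 were below the untreated arrays, and 2 of them were within the range of the treated wild type. The treatment difference was -0.12 ± 0.26 (SE), with a 95% interval from -0.68 to 0.44 and an adjusted p of 0.711. Psmb9 fell by 1.01 ± 0.24 (SE) in the mutant against the treated wild type (7.49 ± 0.57 against 8.50 ± 0.14, SD, n = 4 each), with an adjusted p of 0.00611 and a difference of -1.23 to -0.82 with any array left out. Against untreated wild type the mutant was 2.18-fold lower (-1.13 ± 0.26, adjusted p = 0.00232), the only member called lower in that comparison. The antibiotic group differed from the treated wild type by -0.45 (interval -0.97 to 0.07, adjusted p = 0.238) and from the untreated wild type by -0.57 (adjusted p = 0.0743). The latter was called without array 8, 10 or 14 (0.0499, 0.0363 and 0.0457), with centring (-0.75, 0.0222) and when only these groups were fitted (0.0494).

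Psmb10 read 8.19, 8.37 and 8.46 on untreated arrays and 8.95, 9.46, 8.53 and 9.03 on treated wild-type arrays. The mutant values were 8.29, 8.54, 9.28 and 8.58, and those of the antibiotic group 8.66, 8.78, 9.25 and 8.74. Arrays 5, 10 and 14 were the high ones of their groups, and the 3 treated groups overlapped. Psmb10 rose by 0.65 ± 0.23 (SE) with treatment, from 8.34 ± 0.14 (SD, n = 3) to 8.99 ± 0.38 (SD, n = 4), with an adjusted p of 0.0255. The call was lost without untreated array 1 (0.58, 0.0854), untreated array 2 (0.67, 0.0536) or treated array 5 (0.50, 0.0807), with centring (0.43, 0.124) and with quantile normalisation (0.54, 0.0619). The mutant differed from the treated wild type by -0.32 (interval -0.79 to 0.14, adjusted p = 0.289) and the antibiotic group by -0.13 (interval -0.60 to 0.33, adjusted p = 0.735). The antibiotic group against untreated wild type was at 0.52 ± 0.23, adjusted p = 0.071. It was called without array 10 (0.0342), with array weights (0.0483) and when only these groups were fitted (0.0262).

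**Figure D2:**
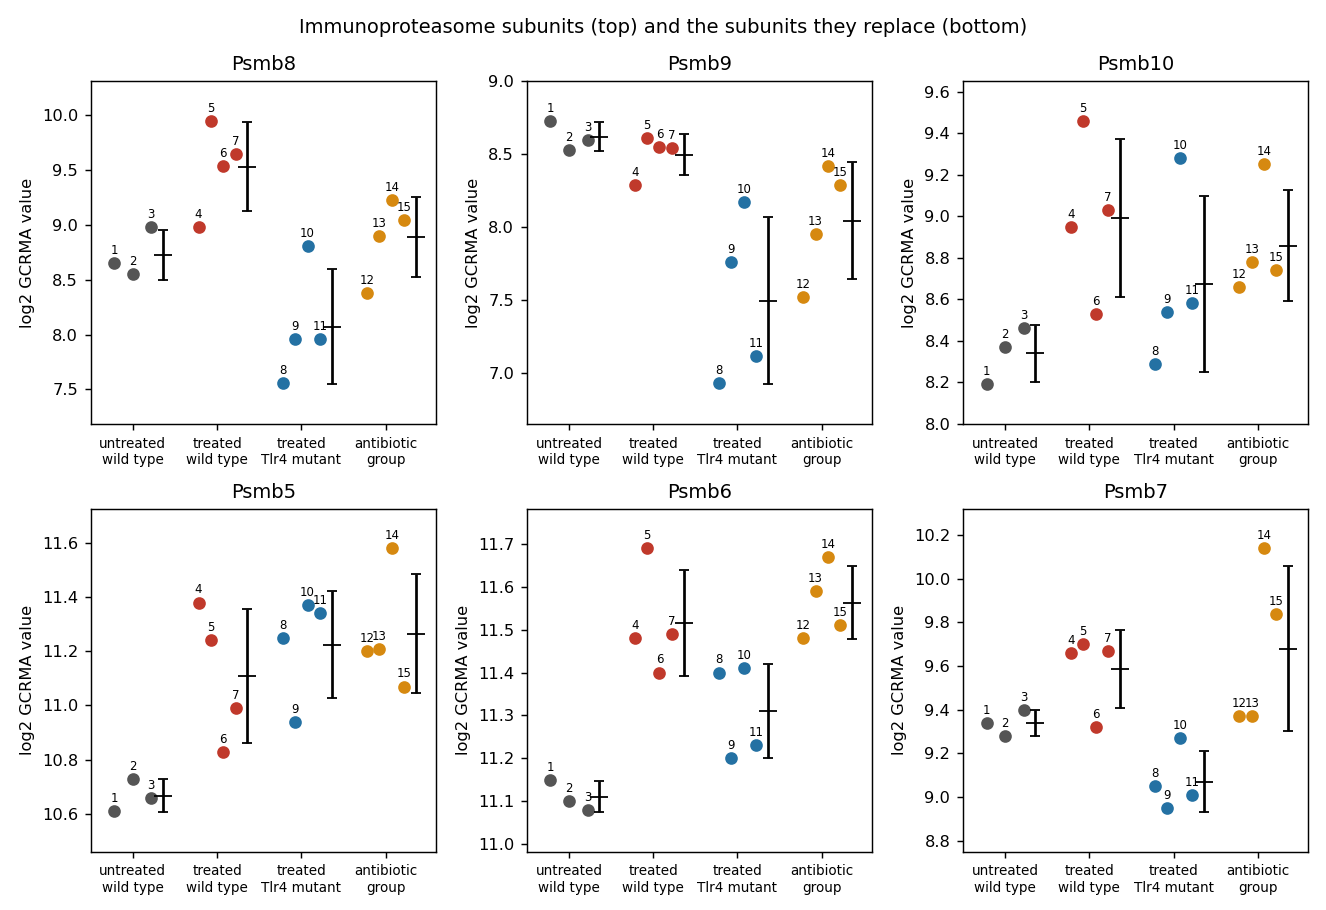
Log2 GCRMA values (vertical axes, a separate range per panel) of the immunoproteasome subunits and of the subunits they replace in the 4 groups (horizontal axes); each point is an array with its number, and the bar beside each group is mean ± SD. The 4 mutant points of Psmb8 and of Psmb9 lie below all treated wild-type points, while Psmb10 overlaps between the 3 treated groups.

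Of the counterparts in the constitutive core, Psmb5 and Psmb6 rose with treatment and Psmb7 fell in the mutant against the treated wild type. Psmb5, which carries the chymotrypsin-like activity, read 10.61, 10.73 and 10.66 untreated and 11.38, 11.24, 10.83 and 10.99 in the treated wild type, with no overlap. Its other values were 11.25, 10.94, 11.37 and 11.34 in the mutant and 11.20, 11.21, 11.58 and 11.07 in the antibiotic group, so each treated array was above each untreated array. Against untreated wild type it was higher by 0.44 (adjusted p = 0.0215), 0.56 (0.00718) and 0.60 (0.00405) in the 3 treated groups, of which the mutant also differs in strain. The first of these calls was lost without array 1, 3, 4 or 5 (adjusted p = 0.0649, 0.0519, 0.0647 and 0.0557). Psmb6, with the caspase-like activity, read 11.15, 11.10 and 11.08, then 11.48, 11.69, 11.40 and 11.49 in the treated wild type, 11.40, 11.20, 11.41 and 11.23 in the mutant, and 11.48, 11.59, 11.67 and 11.51 with antibiotics. No treated array was as low as an untreated one. Psmb6 rose by 0.40 ± 0.10 (SE) in the treated wild type (adjusted p = 0.00286) and by 0.45 in the antibiotic group (0.00135); the mutant difference, 0.20, was not called (0.106).

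Psmb7, with the trypsin-like activity, was lower in the mutant than in both other treated groups. Its values were 9.34, 9.28 and 9.40 untreated, 9.66, 9.70, 9.32 and 9.67 in the treated wild type, 9.05, 8.95, 9.27 and 9.01 in the mutant, and 9.37, 9.37, 10.14 and 9.84 with antibiotics. All mutant arrays were below all others. The difference from the treated wild type was -0.52 ± 0.16 (SE), 1.43-fold, with an adjusted p of 0.0251, and was lost without array 4, 5, 7, 8, 9 or 11 (adjusted p = 0.0556, 0.0658, 0.064, 0.0554, 0.067 and 0.0541, at -0.51 to -0.48). Treatment of the wild type gave 0.25 ± 0.17, which was not called (0.229).

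Set against its counterpart on the same array, with the untreated mean at 0, the immunoproteasome subunits read as follows. The change of Psmb8 minus that of Psmb5 was -0.45, 0.65, 0.66 and 0.60 log2 units on the treated wild-type arrays, where array 4 is the low one. It was -1.74, -1.04, -0.63 and -1.43 in the mutant and -0.88, -0.37, -0.40 and -0.09 in the antibiotic group, against -0.24 to 0.26 over the untreated arrays. All 4 mutant arrays thus lay below the untreated and treated wild-type ranges. For Psmb9 against Psmb6 every treated array of the 3 groups was below the untreated range (-0.08 to 0.07). The values were -0.69, -0.58, -0.35 and -0.46 in the treated wild type, -1.98, -0.95, -0.75 and -1.62 in the mutant and -1.47, -1.15, -0.75 and -0.72 in the antibiotic group. For Psmb10 against Psmb7 the values were 0.30, 0.76, 0.21 and 0.35, then 0.24, 0.59, 1.00 and 0.57, then 0.30, 0.41, 0.11 and -0.10, against -0.15 to 0.09 untreated. These are differences between changes on each array, not ratios of subunits, and were not tested. Either subunit of a pair can move them. With treatment of the wild type Psmb6 rose by 0.40, whereas Psmb9 differed by -0.12 and was not called. In the mutant against untreated wild type Psmb10 differed by 0.33 and Psmb7 by -0.27, neither of them called.

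**Figure D3:**
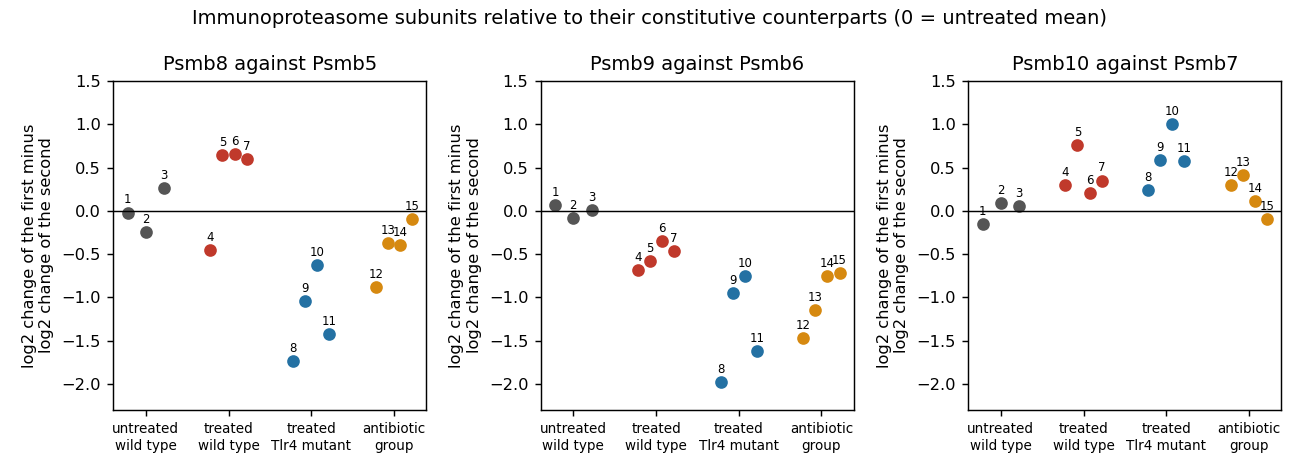
Change of Psmb8, Psmb9 and Psmb10 minus the change of Psmb5, Psmb6 and Psmb7 on the same array (vertical axes, log2 units, the untreated mean at 0) by group; each point is an array with its number. The mutant points lie at -1.74 to -0.63 for Psmb8 against Psmb5, below all untreated and treated wild-type points, and all treated points lie below 0 for Psmb9 against Psmb6.

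Markers of several cell types also differed between the groups, not all in the same order. In bulk tissue, fewer cells of a type and less RNA per cell cannot be told apart. The summed level of 14 Kupffer cell and macrophage markers had a log2 of 10.00 to 11.20 in the untreated group, 12.62 to 13.14 in the treated wild type, 10.23 to 10.59 in the mutant and 11.51 to 12.41 in the antibiotic group. Of 13 that were tested, 11 rose with treatment, where 35.9% of all genes did. In the mutant against the treated wild type 12 fell (17.6% of all genes), and in the antibiotic group 11 fell (9.01%). In the untreated, treated wild-type, mutant and antibiotic groups, the means of Psmb8 were 8.73, 9.53, 8.07 and 8.89. Those of Psmb9 were 8.62, 8.50, 7.49 and 8.05, and those of Psmb10 were 8.34, 8.99, 8.67 and 8.86. The summed T and NK cell level (12 markers) was 5.74 to 5.82, 5.80 to 6.11, 6.03 to 7.21 and 5.76 to 6.59 in the same order of groups; all 12 were under 4 on every array of both wild-type groups without antibiotics, and 11 in each of the other groups. B cell markers (7) summed to 8.42 to 8.76, 5.74 to 7.0, 5.02 to 5.28 and 5.49 to 5.70, with 6, 5, 7 and 6 of them under 4 throughout. The 7 dendritic cell markers summed to 5.73 to 5.90, 5.85 to 6.01, 5.53 to 5.82 and 5.54 to 5.78. In each group 6 of them were under 4 on every array. The part of these cells in the values of Psmb8, Psmb9 and Psmb10 was not tested.

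Genes that work with the immunoproteasome moved in both directions, as did all genes tested. Of 15 tested genes of the interferon gamma response, 6 rose and 6 fell with treatment. In the mutant against the treated wild type 2 rose and 3 fell, and in the antibiotic group 0 rose and 2 fell (Cxcl10 and Irf8). Over all genes the shares were 35.9% higher and 26.7% lower with treatment, 13.2% and 17.6% in the mutant, and 4.95% and 9.01% with antibiotics. Irf8, a transcription factor of myeloid cells, was the highest at 2.71 with treatment (adjusted p = 4.49e-08), from 3.14 ± 0.08 (SD, n = 3), a level near background, and fell by 1.89 in the mutant (6.19e-06). Irgm2, an interferon-induced GTPase, fell by 1.57 with treatment (0.000498) and was higher by 1.19 in the mutant (0.00611), the opposite order to Irf8. Irf1, a factor that acts on the Psmb9 promoter, fell by 0.74 with treatment (0.00069), and the mutant difference, 0.05, was not called (0.843). Ifng itself stayed under 4 on every array (1.36 to 1.71).

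Of 12 tested genes of MHC class I processing and presentation, 3 rose and 3 fell with treatment. In the mutant 2 rose and 1 fell, and in the antibiotic group 1 rose and 0 fell. The shares over all genes, in the same order, were 35.9% and 26.7%, 13.2% and 17.6%, and 4.95% and 9.01%. H2-K1, a class I heavy chain, was the highest with treatment at 0.63 (0.000421) and fell by 0.33 in the mutant (0.0375). Nlrc5, an activator of class I genes and of Psmb9, was the lowest with treatment at -0.71 (0.00137). Tapbpl, an editor of class I peptides, was the highest in the mutant at 0.38 (0.031) and in the antibiotic group at 0.45 (0.0273), after a fall of 0.63 with treatment (0.000902). Tap2, a subunit of the peptide transporter and the neighbour of Psmb8, rose by 0.60 with treatment (0.0137) and was not called in the mutant (-0.37, 0.128). Tap1, which shares the interval printed above with Psmb9, was near background on all arrays (3.47 to 4.49).

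In the rest of the 20S core, 1 of 7 alpha subunits and 4 of 7 constitutive beta subunits rose with treatment (14.3% and 57.1%, against 35.9% of all genes). None of these 5 rises was called with centring. Psma1, the alpha subunit with the largest treatment difference, read 11, 11.20 and 11.30 untreated and 11.67, 11.73, 11.36 and 11.65 treated, without overlap. Its mutant values were 11.32, 11.15, 11.43 and 11.50, and those of the antibiotic group 11.28, 11.37, 11.63 and 11.26. It rose by 0.43 ± 0.13 (SE) in the treated wild type (adjusted p = 0.00985), a call lost without untreated array 1 (0.35, 0.0539), and was not called in the mutant (-0.25 against the treated wild type). Psma5, the alpha subunit with the lowest treatment difference, read 11.47, 11.49 and 11.38, then 11.49, 11.44, 11.22 and 11.42, then 11.45, 11.40, 11.60 and 11.53, then 11.33, 11.18, 11.42 and 11.08, with overlap throughout. Psma2 read 11.46, 11.74 and 11.45 untreated, 11.93, 11.84, 11.59 and 11.73 treated, 11.87, 11.73, 11.99 and 12.02 in the mutant and 11.84, 11.66, 12.05 and 11.67 with antibiotics. Of its 6 comparisons only the mutant against untreated wild type was called, at 0.35 (0.0327), and not without array 1, 3, 10 or 11 (0.108, 0.115, 0.0718 and 0.08). Psma3, Psma4, Psma6 and Psma7 differed by 0.09 to 0.27 with treatment and were not called.

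Among the other beta subunits, Psmb4 and Psmb2 rose with treatment and Psmb1 and Psmb3 did not pass the test. Psmb4, the last beta subunit to join the growing core, read 12.55, 12.22 and 12.20 untreated and 12.49, 13.11, 12.87 and 13.01 treated, where treated array 4 lay below untreated array 1. The mutant read 12.53, 12.72, 12.58 and 12.85 and the antibiotic group 12.71, 13.07, 12.56 and 12.40. The difference of 0.54 ± 0.17 (SE) had an adjusted p of 0.0138, and was not called without untreated array 2 (0.49, 0.0537) or 3 (0.48, 0.0557). Psmb2 rose by 0.45 ± 0.15 (SE, adjusted p = 0.0158; 0.0602 without untreated array 1), and in the antibiotic group by as much against untreated wild type (0.45, 0.017; 0.0638 without array 1 and 0.0533 without array 14). Psmb3 read 12.28, 12.19 and 12.19, then 12.30, 12.22, 11.99 and 12.16, then 12.35, 12.16, 12.36 and 12.19, then 12.48, 12.23, 12.16 and 11.95, and overlapped between all groups. Psmb1 differed by -0.01 with treatment (0.921).

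In the 19S base, 1 of 6 ATPases and 1 of 3 scaffold or receptor subunits rose with treatment (16.7% and 33.3%, against 35.9% of all genes), neither of them called with centring. None of these 9 was called in the mutant (13.2% higher and 17.6% lower among all genes) or the antibiotic group (4.95% and 9.01%) against the treated wild type; at an unadjusted limma p under 0.05 there was 1 in each, Psmd2 higher and Psmc6 lower. The largest ATPase difference was that of Psmc4, which read 12.22, 11.70 and 11.75 untreated, 11.91, 12.67, 12.26 and 12.47 treated, 12.26, 12.48, 12.38 and 12.69 in the mutant and 12.52, 12.51, 12.12 and 11.90 with antibiotics. Untreated array 1 and treated array 4 made its first pair of groups overlap, and 0.44 ± 0.20 (SE) was not called (0.0715); it passed without untreated array 1 (0.60, 0.029) or treated array 4 (0.58, 0.0206), and with quantile normalisation (0.55, 0.0245). In the mutant against untreated wild type it was higher by 0.56 (0.0283), a call lost without array 2, 3, 9 or 11 (0.11, 0.0987, 0.0515 and 0.0755). The called ATPase was Psmc6, with 11.07, 11.17 and 11.18 untreated, 11.48, 11.37, 11.37 and 11.44 treated, 11.40, 11.12, 11.43 and 11.51 in the mutant and 11.17, 11.08, 11.29 and 10.93 with antibiotics. Its difference of 0.27 ± 0.11 (SE), adjusted p = 0.0468, was lost in 11 of 15 fits that left out an array (those without array 1 to 8, 10, 12 or 13, with adjusted p up to 0.138). Another probe set of Psmc6 differed by -0.49 (0.0119). The remaining kept one did not show a rise either. It read 8.90, 8.24 and 8.39 untreated and 7.78, 8.56, 8.11 and 8.11 in the treated wild type, with overlap. Psmc5 read 10.48, 10.23 and 10.28, then 10.82, 10.84, 10.43 and 10.58, then 10.61, 10.56, 11.01 and 10.86, then 10.79, 10.59, 11.04 and 10.64. It was called in the mutant (0.43, 0.025) and the antibiotic group (0.43, 0.0217) against untreated wild type, and not in the treated wild type (0.34, 0.06). The first call was lost without array 2, 3, 10 or 11 (0.0889, 0.0739, 0.0725 and 0.059) and the other without array 2, 3 or 14 (0.0799, 0.0651 and 0.0675), while the treated wild type passed without array 6 or 14 (0.0294 and 0.048).

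The ATPase with the lowest treatment difference was Psmc2, which read 12.26, 12.14 and 12.15, then 12.16, 12.26, 11.99 and 12.20, then 12.30, 12.23, 12.29 and 12.38, then 12.30, 12.13, 12.07 and 11.83, all overlapping. Psmc3 read 11.11, 11.10 and 11.22, then 11.61, 11.39, 11.23 and 11.45, then 11.27, 11.14, 11.57 and 11.33, then 11.41, 11.32, 11.63 and 11.29. Every treated wild-type array was just above the untreated ones, and 0.28 was not called (0.0698). Psmd2, the scaffold that binds ubiquitin-like domains, read 10.08, 10.14 and 9.78 untreated and 10.62, 10.44, 10.24 and 10.37 treated. The mutant read 10.73, 10.59, 10.77 and 10.71 and the antibiotic group 10.59, 10.45, 10.71 and 10.33. All treated arrays were above all untreated ones. Against untreated wild type, Psmd2 was higher by 0.42 ± 0.12 in the treated wild type (0.00915, and 0.0611 without untreated array 3). It was higher by 0.70 in the mutant (0.000302), which also differs in strain, and by 0.52 in the antibiotic group (0.00253). Psmd4, the ubiquitin receptor, read 10.37, 10.38 and 10.34, then 10.65, 10.51, 10.20 and 10.36, then 10.83, 10.57, 10.84 and 10.73, then 10.82, 10.24, 11.07 and 10.51. Psmd1, the other scaffold, read 11.01, 11.07 and 11.16, then 11.59, 11.35, 11.04 and 11.37, then 11.20, 11.12, 11.59 and 11.37, then 11.38, 11.10, 11.54 and 10.97. Neither passed the test with treatment (0.06 and 0.25).

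All 3 chaperones that assemble the base rose with treatment, where 35.9% of all genes did, Psmd9 by more than any other member; the rises of Psmd10 and Psmd5 were not called with centring or quantile normalisation. Psmd9, which holds the ATPases during assembly and leaves the finished complex, read 6.44, 6.06 and 5.93 untreated and 7.90, 7.37, 6.91 and 7.44 in the treated wild type. It read 8.56, 7.94, 8.49 and 8.34 in the mutant and 8.73, 7.74, 8.40 and 7.90 in the antibiotic group. Every treated array was above every untreated array, and every mutant array above every treated wild-type array, while the antibiotic group and the treated wild type overlapped at arrays 4, 13 and 15. The rise with treatment was 1.26 ± 0.26 (SE), or 2.39-fold (6.15 ± 0.26, SD, n = 3, to 7.40 ± 0.40, SD, n = 4), with an adjusted p of 0.000657. Against untreated wild type the mutant was 4.56-fold higher (2.19 ± 0.26, adjusted p = 7.64e-06) and the antibiotic group 4.13-fold higher (2.05 ± 0.26, 1.13e-05). Psmd9 was also higher in the mutant than in the treated wild type, by 0.93 ± 0.24 (SE; 0.00871, and at most 0.0296 with any array left out). In the antibiotic group the difference was 0.79 ± 0.24 (SE; 0.0401), which was lost without array 2, 5, 6, 7, 12 or 14 (adjusted p = 0.0508, 0.082, 0.11, 0.0792, 0.12 and 0.0956). A weaker probe set of Psmd9, with a mean of 5.51, gave 0.26, 0.67 and 1.90 in the 3 comparisons, and only the last was called (0.00225).

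Psmd10, known as gankyrin, rose by 0.48 ± 0.17 (SE) with treatment (adjusted p = 0.0243) and was not called with centring (0.26, 0.197), with quantile normalisation (0.30, 0.149) or without array 1, 3, 4 or 5 (0.0517, 0.0786, 0.062 and 0.0723). In the mutant against untreated wild type it was higher by 0.45 (0.038, and not called without array 1, 2, 3, 8, 10 or 11, at up to 0.114). Psmd5 read 7.57, 7.68 and 7.79, then 8.15, 8.02, 7.82 and 8.38, then 7.86, 7.83, 8.15 and 7.99, then 7.64, 7.66, 8.02 and 7.64. The treated wild type lay just above the untreated group, whereas 3 of the 4 arrays with antibiotics were inside the untreated range. It rose by 0.41 ± 0.14 (0.0207), a call lost with centring (0.19, 0.252), with quantile normalisation (0.20, 0.224) and without array 1, 2 or 7 (0.0793, 0.0509 and 0.0683). Its difference between the antibiotic group and the treated wild type, -0.35, was not called (0.0906) and was called without array 14 (-0.44, 0.0461).

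Of 8 tested lid subunits, Psmd13 and Psmd8 rose with treatment (25.0%, below the 35.9% of all genes). None was called in the mutant or the antibiotic group against the treated wild type, where the shares over all genes were those given for the base; at an unadjusted limma p under 0.05 there was 1 in each, Psmd3 higher and Psmd11 lower. Psmd13 read 8.74, 9.03 and 9.10 untreated and 10.01, 9.85, 9.54 and 9.75 treated, with 9.67, 9.57, 9.78 and 9.63 in the mutant and 9.74, 9.86, 9.74 and 9.37 with antibiotics. Psmd8, chosen after its values were seen, read 10.07, 10.23 and 10.24, then 10.96, 11.22, 10.86 and 10.96, then 11.02, 10.71, 11.03 and 10.95, then 11.04, 10.94, 11.77 and 11.38. For both genes all 12 treated arrays stood above the 3 untreated ones. Against untreated wild type, Psmd13 was higher by 0.83 ± 0.14 (SE), 1.78-fold, in the treated wild type (adjusted p = 0.000128). It was higher by 0.70 in the mutant (0.000755), which also differs in strain, and by 0.72 in the antibiotic group (0.000531). Psmd8 was higher by 0.82 ± 0.17 (SE), 1.76-fold (0.000785), by 0.74 (0.00214) and by 1.10 (7.67e-05), in the same order of groups. None of these 6 calls was lost under any alternative or with any array left out. Of the Psmd13 probe sets, a further one with a mean of 9.31 gave 0.76 and a weak one with a mean of 4.82 gave -0.72 (0.00718) with treatment.

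Against untreated wild type the other lid subunits differed by less than Psmd13 and Psmd8 in each treated group, whereas Psmd3 had the largest lid difference from the treated wild type, 0.44 in the mutant and 0.40 in the antibiotic group, neither of them called (0.0936 and 0.172). Psmd3 read 7.77, 7.87 and 7.91, then 8.24, 8.03, 7.61 and 7.95, then 8.78, 8.14, 8.30 and 8.37, then 8.68, 8.06, 8.72 and 7.99. The mutant and the antibiotic group were above the untreated range and the treated wild type was not. It was called in the mutant (0.55, 0.0353) and the antibiotic group (0.51, 0.0433) against untreated wild type, and these calls were lost without array 1, 2, 3, 8 or 11 (adjusted p = 0.0953, 0.0728, 0.0639, 0.0996 and 0.0561) for the mutant, and in 9 of 15 fits without an array, at up to 0.125, for the antibiotic group. Psmd11 read 11.57, 11.83 and 11.68, then 11.85, 11.75, 11.49 and 11.66, then 11.77, 11.66, 11.65 and 11.59, then 11.53, 11.34, 11.60 and 11.26. Its antibiotic difference from the treated wild type was -0.25 (0.134). Psmd14, the deubiquitinase of the lid, differed by 0.40 with treatment, without overlap between the groups, and was not called (0.0592). Psmd6, Psmd7 and Psmd12 differed by 0.10, 0.43 and 0.20 and were not called.

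**Figure D4:**
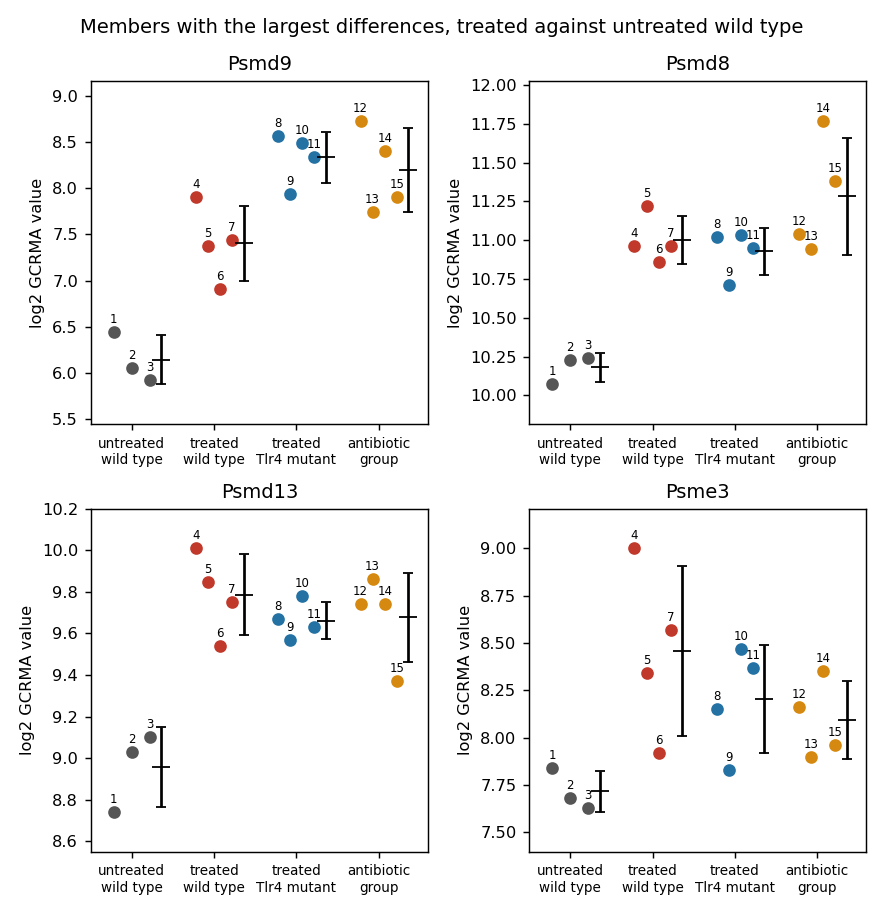
Log2 GCRMA values (vertical axes, a separate range per panel) of Psmd9, Psmd8, Psmd13 and Psme3 by group; each point is an array with its number, and the bar beside each group is mean ± SD. In the panels of Psmd9, Psmd8, Psmd13 the treated points all lie above the untreated ones, and Psmd9 is highest in the mutant and the antibiotic group.

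The activators, which open the core in place of the 19S cap, are Psme1, Psme3 and Psme4 here. Psme1, the alpha chain of the interferon-inducible activator, read 10.29, 10.35 and 10.47 untreated, 10.52, 10.85, 10.64 and 10.76 treated, 10.31, 10.32, 10.51 and 10.28 in the mutant, and 10.33, 10.51, 10.69 and 10.73 with antibiotics. The treated wild type lay above the untreated group and above the mutant. Psme1 rose by 0.32 ± 0.12 (SE) with treatment (adjusted p = 0.0286) and fell by 0.34 ± 0.11 (SE) in the mutant against the treated wild type (0.0316). The rise was lost with centring (0.10, 0.484) and without array 1, 2, 5 or 7 (0.0967, 0.0729, 0.0803 and 0.0668). The fall was lost with centring (-0.29, 0.0562) and without array 5, 7, 8, 9 or 11 (0.0947, 0.0817, 0.0726, 0.0709 and 0.0713).

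Psme3, the nuclear activator, read 7.84, 7.68 and 7.63 untreated and 9.0, 8.34, 7.92 and 8.57 treated, with array 4 the high one and array 6 close to the untreated arrays. The mutant read 8.15, 7.83, 8.47 and 8.37 and the antibiotic group 8.16, 7.90, 8.35 and 7.96. Psme3 rose by 0.74 ± 0.22 (SE), 1.67-fold, with treatment (adjusted p = 0.00792, at most 0.0297 with any array left out), and was not called in the mutant or antibiotic group against the treated wild type (-0.25 and -0.36). Psme4, an activator linked to histone turnover and DNA repair, read 11.32, 11.44 and 11.41 untreated and 11.21, 11.14, 11.17 and 11.15 treated, so that the treated wild type lay below. It read 11.68, 11.67, 11.48 and 11.50 in the mutant, above both wild-type groups, and 11.27, 11.13, 11.41 and 11.36 with antibiotics. The treatment difference, -0.22 ± 0.10 (SE), was not called (0.0569), and was called with centring (-0.45, 0.000834), with array weights (-0.25, 0.006) and without array 13 (0.0475). In the mutant Psme4 was higher than in the treated wild type by 0.42 ± 0.09 (SE; 0.00289, and at most 0.0113 with any array left out), and with the mean of its probe sets by 0.29 (0.0544).

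**Figure D5:**
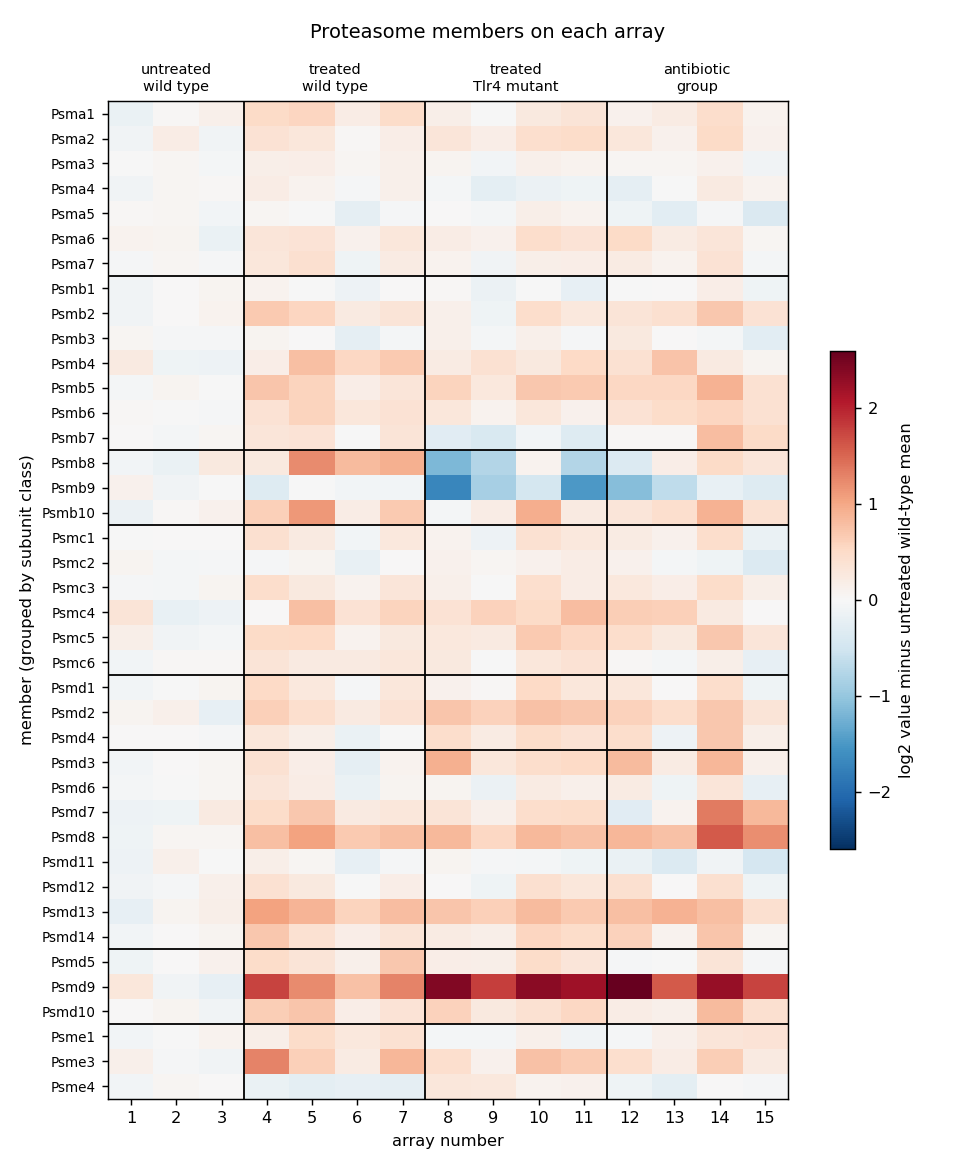
Log2 value minus the untreated wild-type mean (colour, from blue for lower to red for higher) of the 40 tested members (vertical axis, by subunit class) on each of the 15 arrays (horizontal axis). Psmd9 is red on all 12 treated arrays, Psmb8 and Psmb9 are blue on most mutant arrays, and array 14 stands out for Psmd7 and Psmd8.

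Against untreated wild type, the mutant had 10 of 40 members called higher and 1 lower (32.6% and 21.5% of all genes), and the antibiotic group 9 higher and 0 lower (34.5% and 24.3%). The 0 was 2 at an unadjusted p under 0.05. Both comparisons and that of the treated wild type share the untreated arrays. The members' median differences were 0.21 and 0.26, against 0.13 and 0.11 for all genes. Centring took the all-gene medians to -0.05 and -0.07 and the constitutive medians from 0.23 to 0.05 and from 0.27 to 0.09. The higher shares of all calls were 60.3% and 58.6%, and 43.4% and 44.5% with centring or 47.1% and 45.5% with quantile normalisation. Without array 2, 3 or 11 the mutant count of higher members was 6, 5 and 5. The antibiotic group against the mutant had 1 member higher and 1 lower, where 6.88% and 5.41% of all genes were called. These were Psmb7 (0.61 ± 0.16, SE; 0.0243, and not called without array 8, 9, 11, 14 or 15, at 0.059, 0.0668, 0.0554, 0.0652 and 0.0631) and Psme4 (-0.29 ± 0.09, 0.0479, lost in 14 of 15 fits without an array, at up to 0.125). Psmb8 differed by 0.82 (0.0553) between these groups and passed without array 4, 10 or 12 (0.0412, 0.00972 and 0.0259), and Psmb9 by 0.56 (0.149; 0.0298 without array 10).

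Factors that assemble or serve the proteasome without being subunits of it moved in both directions, as did all genes tested. Of 17 tested, 6 rose and 3 fell with treatment, against 35.9% and 26.7% of all genes. In the mutant against the treated wild type 3 rose and 2 fell (13.2% and 17.6% of all genes). In the antibiotic group 0 rose and 2 fell (Psmg2 and Txnl1), against 4.95% and 9.01%. Zfand2a, a heat-inducible proteasome partner, was the highest with treatment at 1.38 (adjusted p = 0.00495) and in the mutant at 0.96 (0.0476). Zfand5, an activator of the 26S proteasome, was the lowest with treatment at -0.78 (0.00211). Psmg2, a chaperone of the alpha ring, rose by 0.51 (0.00176) and fell by 0.34 in the mutant (0.0317) and by 0.36 in the antibiotic group (0.044). Nfe2l1, the transcription factor that raises proteasome genes when the proteasome is inhibited, fell by 0.64 with treatment (5.45 ± 0.25 against 6.09 ± 0.15; 0.00807) and was higher in the mutant by 0.52 (0.0349).

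Of 10 tested genes that supply ubiquitin or carry substrates, 6 rose and 1 fell with treatment (35.9% and 26.7% of all genes). In the mutant 1 rose and 1 fell (13.2% and 17.6%), and likewise in the antibiotic group (4.95% and 9.01%). Ube2k, a ubiquitin-conjugating enzyme, rose most with treatment (0.90, 2.82e-05). Ubqln4, a shuttle that brings substrates to the proteasome, fell by 0.40 with treatment (0.0288) and was higher in the mutant by 1.21 (2.09e-05) and in the antibiotic group by 0.62 (0.01). Rad23b, another shuttle, fell by 0.43 in the mutant (0.0209) and by 0.61 in the antibiotic group (0.00817).

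Dividing cells and cells of the vessel wall also moved with treatment. The summed level of 7 proliferation markers had a log2 of 5.17 to 5.36 untreated, 12.44 to 13.18 in the treated wild type, 10.13 to 11.02 in the mutant and 9.87 to 12.15 with antibiotics. All 7 were under 4 on every untreated array. Hepatic stellate cell markers (8) summed to 9.76 to 11.16, 13.33 to 13.50, 11.26 to 11.89 and 12.21 to 13.06, sinusoidal endothelial markers (8) to 10.29 to 11.07, 11.38 to 11.61, 10.29 to 10.72 and 11.14 to 11.58, and neutrophil markers (6) to 4.95 to 4.97, 6.10 to 7.21, 5.04 to 5.60 and 5.09 to 5.46. Of the neutrophil markers, 6, 4, 5 and 6 were under 4 on every array of the group, in the same order. The part of all these cells in the member values was not tested.

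The 18 members with more than 1 kept probe set did not read alike on all of them. Of 28 further probe sets, 20 had the sign of the one used with treatment, 15 in the mutant and 17 in the antibiotic comparison. With p-values adjusted over all kept probe sets, Psmb4 rose on its other probe set too (0.67, 0.000369), and there it also fell by 0.42 in the mutant (0.0148), which the one used did not show (-0.20, 0.39). The remaining Psme4 probe sets ranged in the mutant from 0.21 to 0.35 and were not called.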

How the data were processed

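Liver RNA was amplified and labelled with biotin by in vitro transcription, per the labels' protocols. The deposited values are log2 probe set summaries made by the authors with GCRMA, a method for background correction and normalisation, per the submitters' processing notes; its version and settings are not given in the sources used here. They were used as deposited. Array data give no counts, and the number of arrays limits precision. Probe sets with 1 gene symbol in the platform annotation (34945 of 45101) were used. Genes needed a log2 value of 4 on at least 3 arrays, and a gene was read from its kept probe set of highest mean. Group means were fitted to all 15 arrays with limma 3.58.1 in R 4.3.3 (11 residual degrees of freedom), with Benjamini-Hochberg adjustment over 9482 genes in each of 6 comparisons; called means an adjusted p under 0.05. On simulated data with 200 changed genes of 9482, treated against untreated, 20% of changes of 0.5 and 77% of changes of 1 on the log2 scale were called. In the data 3408 genes were called higher and 2530 lower in that comparison. The adjustment depends on how many genes change, so the simulated shares do not describe it. Values on every array are given for the immunoproteasome subunits, their counterparts, Psme1 and the highest and lowest member of each class in 3 comparisons. Alternatives covered scaling, filters, probe sets, array weights, the prior, the threshold and each array left out. The members and lists were chosen with earlier results of these data known. Figures used Python 3.11.15 and matplotlib 3.10.9.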

Additional observations from a re-analysis of the deposited data

Results flagged for a closer look

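In 2 of 90 sets of 4 arrays, a member's lowest or highest array stood further from the nearest other array than Dixon's 95% value allows; chance alone gives about 1 such set in 20. Psmb7 read 9.32 on treated wild-type array 6, below the nearest of the other arrays at 9.66 (gap over range 0.879). Psmd5 read 8.02 on array 14 of the antibiotic group, above the nearest at 7.66 (0.929). Array 6 was also low, and array 14 high, for most constitutive members of its group.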

How the results depend on the processing

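No paired analysis was possible because the labels number the arrays 1 to 15 across the groups. The falls of Psmb8 and Psmb9 in the mutant against the treated wild type were called under every alternative run and with any array left out. Member counts were less stable. With centring, 4 members were higher and 2 lower with treatment, where 27.4% and 37.1% of all genes were. Against untreated wild type, 5 were higher and 5 lower in the mutant (23.6% and 30.8% of all genes). In the antibiotic group 5 were lower against untreated wild type (33.1% of all genes). At an adjusted p under 0.01, 7 were higher with treatment, 2 lower in the mutant against the treated wild type, 0 higher in the antibiotic group against it, and 5 higher in the mutant against untreated wild type; the antibiotic group against the mutant had 0 in each direction. With quantile normalisation the mutant had 2 lower (27.3% of all genes) and the antibiotic group 14 higher (25.8%) against untreated wild type. The antibiotic group had 0 lower against the mutant (6.36% of all genes). For the other settings and the fits without an array, the share of all genes is not given, so their counts have no background.

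With treatment 1 member was called lower with values under 4 set to 4, a filter at 6, the mean of kept probe sets, array weights, a trended and robust prior, or the second probe set of each gene, the last chosen after seeing the data. With array weights, 4 were higher in the mutant and 3 lower in the antibiotic group against the treated wild type; against untreated wild type 2 were lower in the mutant, and 15 higher and 1 lower in the antibiotic group; 0 were lower against the mutant. With the mean of kept probe sets 1 was higher in the mutant against the treated wild type, 1 lower in the antibiotic group against untreated wild type and 0 lower against the mutant. With the second probe set these were 0, 1 and 0, with 2 lower in the mutant against untreated wild type and 2 higher in the antibiotic group against the mutant. With only the groups compared, or with no filter, 0 were higher in the antibiotic group against the treated wild type and 0 lower against the mutant; the former also gave 1 lower against untreated wild type and 0 higher against the mutant. The trended prior gave 1 lower in the antibiotic group against the treated and 1 against the untreated wild type, and 2 higher against the mutant. The causes were not tested.

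Psmb8 with treatment was 0.58 with centring and missed 0.01 at 0.81; Psmb10 was 0.43 with centring, 0.54 with quantile normalisation and missed 0.01 at 0.65; Psmb8 in the antibiotic group was -0.71, and called, with array weights. Signs turned for Psmc6 with treatment (-0.20 with the mean of kept probe sets, -0.49 with the second probe set) and, with the second probe set, for Psmc6 in the mutant against untreated wild type (-0.48), Psmb3 in the antibiotic group against untreated wild type (0.48) and Psmd9 in the antibiotic group against the mutant (1.24).

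Leaving out 1 array at a time gave 8 to 20 members higher and 0 to 1 lower with treatment, 2 to 3 and 2 to 4 in the mutant, and 0 to 1 in each direction in the antibiotic group, against the treated wild type. Against untreated wild type it gave 5 to 12 and 1 to 2 in the mutant and 6 to 13 and 0 to 2 in the antibiotic group, and between those 0 to 3 and 0 to 1. With treatment Psmb8 ranged from 0.67 to 0.99 and Psmb10 from 0.50 to 0.81. Array data carry no read depth; values near 4 lie close to background, and Psma8 and Psmb11 could not be tested.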
